A study of Mus musculus with 6 samples.

Results

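The genes described here are 9 markers of astrocytes, Slc1a2, Slc1a3, Glul, Aldoc, S100b, Clu, Gfap, Aqp4 and Gja1, read in RNA labelled as coming from microglia of the mouse brain. They were taken by symbol from a named list, and each matched 1 of the 38207 genes and loci in the deposited table. The study sequenced cDNA of microglia on nanopores in 6 libraries, each from a pool of 30 wild-type mice. The control group, sham, held 3 pools of mice that had the surgery without the stroke, and the other group held 3 pools that had undergone tMCAO (commonly short for transient middle cerebral artery occlusion, in which an artery of the brain is blocked for a time and then reopened). The time after surgery, the age and strain of the mice and the method of cell isolation were not given in the sources used here, and each library stands for a pool, so the spread between mice is not seen. The design text speaks of isolated microglia, whereas the extraction protocol speaks of tissue, so how far other brain cells had been removed is not known.

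Astrocytes are the glial cells that take up glutamate released at synapses, turn it into glutamine, buffer potassium and water around neurons and wrap blood vessels with their end feet. They are coupled to each other by gap junctions. After ischemia they become reactive, and the intermediate filament protein GFAP is the best-known sign of that state. Most of the 9 genes are markers because microglia make little of them. Slc1a3 and Glul are exceptions in part, since their transcripts have also been found in microglia and macrophages, and Clu is also made by the choroid plexus and the ependyma.

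In these libraries, Slc1a2, Aldoc and S100b were lower after tMCAO, Slc1a2 by 19.0-fold, Aldoc by 8.90-fold and S100b by 2.97-fold. Slc1a3, Glul, Clu and Gja1 had lower means after tMCAO but did not pass the test, and Gfap and Aqp4, also with lower means, were too low to be tested. Of the 9, 7 were abundant enough to be tested, 3 fell, and 0 rose. No member rose in DESeq2 or limma voom either, and none was higher at an unadjusted p under 0.05. Both of these tools called Slc1a2 and Aldoc lower but not S100b, whose groups overlapped. Over all 13127 genes tested, 8.96% were called lower and 9.17% higher with the same rule (edgeR's quasi-likelihood test, adjusted p under 0.05). The median log2 fold change of the 7 was -1.57, against 0.00 over all genes tested, but the genes that pass a filter on low counts because of 1 group tend to be those that differ, so this median describes the 7 only. In bulk RNA of pooled cells, fewer astrocytes, less RNA per astrocyte and a change in other cells with these transcripts cannot be told apart.

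Total counts were 1855495 to 2614512 per library, so 1 count was worth 0.382 to 0.539 CPM (the count scaled to a fixed library total). Markers of the labelled cell type were abundant: the 14 genes of a microglia list, Cx3cr1, P2ry12 and Tmem119 among them, all passed the filter on low counts and summed to 44625 to 45456 CPM in sham and 44676 to 48325 CPM in tMCAO. Of these 14, 1 rose and 4 fell, against 9.17% higher and 8.96% lower over all genes tested. P2ry12, Siglech, Gpr34 and Fcrls fell and C1qc rose, as listed after the values were seen. The 9 astrocyte genes summed to 449.6, 625 and 329 CPM in sham 1 to 3 and to 193, 223 and 222 CPM in tMCAO 1 to 3. Library sham 2 stood highest in most of them, as its values show. Levels are CPM, given for each library, as a range over libraries or as sums over lists. Log2 fold changes are of tMCAO against sham after TMM scaling, and each value after ± is their standard error (SE).

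The promoters of the genes that fell are shown because NFI factors, which act in astrocyte development, bind the letters TTGGC. RefSeq windows (GRCm38.p6) of the 250 bases before the annotated start were at hand for 7 of the 9 genes, 8 windows in all, with 2 for Aldoc. Both strands were searched for TTGGC. It was found in windows of 4 genes, Slc1a2, Aldoc, S100b and Glul, and in 41.5% of all 32851 RefSeq windows of that length. Each stretch below is given on the plus strand, which is the sense strand of all 3 genes, from the start of the window up to the first annotated exon, with TTGGC or its reverse complement in capitals. The deposited counts hold nothing on binding, and a match of these letters is not a binding site.
Slc1a2, chr2:102706188-102706355: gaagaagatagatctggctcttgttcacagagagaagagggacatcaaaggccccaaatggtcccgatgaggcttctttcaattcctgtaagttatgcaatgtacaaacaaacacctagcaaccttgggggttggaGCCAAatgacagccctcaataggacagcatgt
Aldoc, chr11:78322823-78322967: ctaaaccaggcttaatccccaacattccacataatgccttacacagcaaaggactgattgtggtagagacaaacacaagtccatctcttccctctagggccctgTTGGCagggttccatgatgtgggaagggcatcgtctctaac
S100b, chr10:76253586-76253835: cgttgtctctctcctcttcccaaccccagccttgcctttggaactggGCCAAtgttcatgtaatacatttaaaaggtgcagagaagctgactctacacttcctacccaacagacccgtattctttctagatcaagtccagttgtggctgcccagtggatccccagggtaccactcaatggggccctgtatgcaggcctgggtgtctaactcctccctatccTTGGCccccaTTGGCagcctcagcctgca

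The match begins 114 bases before the RefSeq start in Slc1a2 and 146 bases before it in Aldoc. In both, an exon annotated in GENCODE M21 begins inside the window, and the printed stretch ends there. The S100b window holds 3 matches, at 203, 29 and 19 bases before the start. The windows of Slc1a3, Gfap and Gja1 and the other Aldoc window, not printed above, do not hold these letters. The Glul window holds them at 114 and 51 bases. So Glul, which did not pass the test, has the match as do the 3 genes that fell. Unlike the windows printed above, the Glul window has an annotated exon over its first base. The other motifs searched were the GC box GGGCGG (windows of 3 of the 7 genes, 32.7% of all windows), TATAAA (1 gene, 12.4%) and the STAT motif TTCNNNGAA (2 genes, 7.02%).

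Glutamate uptake is the work of Slc1a2 and Slc1a3, the main glutamate transporters of astrocytes. Slc1a2 (ENSMUSG00000005089) had 188, 326 and 76 counts in sham 1 to 3, or 79.3, 129 and 29.1 CPM, and 6, 14 and 6 counts in tMCAO 1 to 3, or 2.95, 7.55 and 3.20 CPM. All sham libraries lay above all tMCAO libraries, and the lowest sham library held more CPM than the 3 tMCAO libraries together. Among the 9 genes this was the largest fall, with a log2 fold change of -4.25 ± 0.78 (SE; edgeR's quasi-likelihood test, adjusted p = 0.0209). The 3 tMCAO libraries hold 26 counts in all, so the size of the fold rests on few reads. The call was lost without sham 1 (adjusted p = 0.0565), tMCAO 1 (0.0936), tMCAO 2 (0.0672) or tMCAO 3 (0.0965), without the filter on low counts (0.0535) and without both sham 1 and tMCAO 3 (0.191). Its log2 fold change stayed between -4.76 and -3.66 over 15 alternatives, whose adjusted p began at 2.16e-06 (DESeq2).

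Slc1a3 (ENSMUSG00000005360), the second transporter, had 66.2, 70.2 and 52.4 CPM in sham 1 to 3 and 42.4, 51.2 and 48.5 CPM in tMCAO 1 to 3. The groups did not overlap, but the gap between sham 3 and tMCAO 2 was 52.4 against 51.2 CPM. It did not pass the test (log2 fold change -0.53 ± 0.20 SE; edgeR's quasi-likelihood test, adjusted p = 0.0764), except with upper-quartile scaling (adjusted p = 0.0486). The pair of transporters thus had very different sizes of fold. To compare them without any scaling, the counts of Slc1a3 were divided by those of Slc1a2 within each library, after adding 0.5 to both. That ratio was 0.836, 0.544 and 1.80 in sham 1 to 3 and 13.3, 6.59 and 14.1 in tMCAO 1 to 3, so that it was higher in every tMCAO library, and gene length cancels in the change. The log2 ratio differed by 3.52 between the groups (two-sided exact permutation test, p = 0.1, and 0.1 adjusted over 7 such ratios, the smallest value that 3 libraries against 3 allow). These ratios were chosen after the values were seen.

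Glul (ENSMUSG00000026473) encodes glutamine synthetase, which makes glutamine from glutamate and ammonia. Its levels were 134, 140 and 174 CPM in sham 1 to 3 and 118, 117 and 127 CPM in tMCAO 1 to 3. The groups did not overlap, and sham 3, not sham 2, was the highest library. The difference did not pass the test (log2 fold change -0.42 ± 0.16 SE; edgeR's quasi-likelihood test, adjusted p = 0.0950), and it passed in none of the 15 alternatives (0.0533 to 0.285). Glul counts per Slc1a2 count were 1.68, 1.08 and 5.97 in sham 1 to 3 and 37.0, 15 and 36.7 in tMCAO 1 to 3. The groups did not overlap, with a log2 difference of 3.62 (two-sided exact permutation test, p = 0.1, the smallest value possible). A higher ratio follows from the larger fall of Slc1a2. Glul and Slc1a3 together held 44.5%, 33.5% and 69.0% of the counts of the 9 genes in sham 1 to 3, and 83.4%, 75.5% and 78.9% in tMCAO 1 to 3.

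Aldoc (ENSMUSG00000017390) encodes the brain form of the glycolytic enzyme aldolase. It had 112, 175 and 47.4 CPM in sham 1 to 3 and 11.8, 18.3 and 11.2 CPM in tMCAO 1 to 3. As for Slc1a2, sham 2 was highest and sham 3 lowest, and every sham library lay above every tMCAO library. The log2 fold change was -3.15 ± 0.58 (SE; edgeR's quasi-likelihood test, adjusted p = 0.0183). The call was lost without tMCAO 1 (adjusted p = 0.0857), tMCAO 2 (0.0703), tMCAO 3 (0.0959) or both sham 1 and tMCAO 3 (0.189), and the lowest adjusted p of the alternatives was 1.16e-12 (DESeq2). Aldoa (ENSMUSG00000030695), the aldolase found in most cells, had 366, 391 and 378 CPM in sham and 492, 415 and 569 CPM in tMCAO and did not pass (0.27 ± 0.17 SE, adjusted p = 0.291). Aldoa counts per Aldoc count were 3.27, 2.23 and 7.95 in sham 1 to 3 and 40.8, 22.3 and 49.7 in tMCAO 1 to 3. Again there was no overlap, with a log2 difference of 3.20 (two-sided exact permutation test, p = 0.1, the smallest value possible). A higher ratio follows from the fall of Aldoc.

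**Figure D1:**
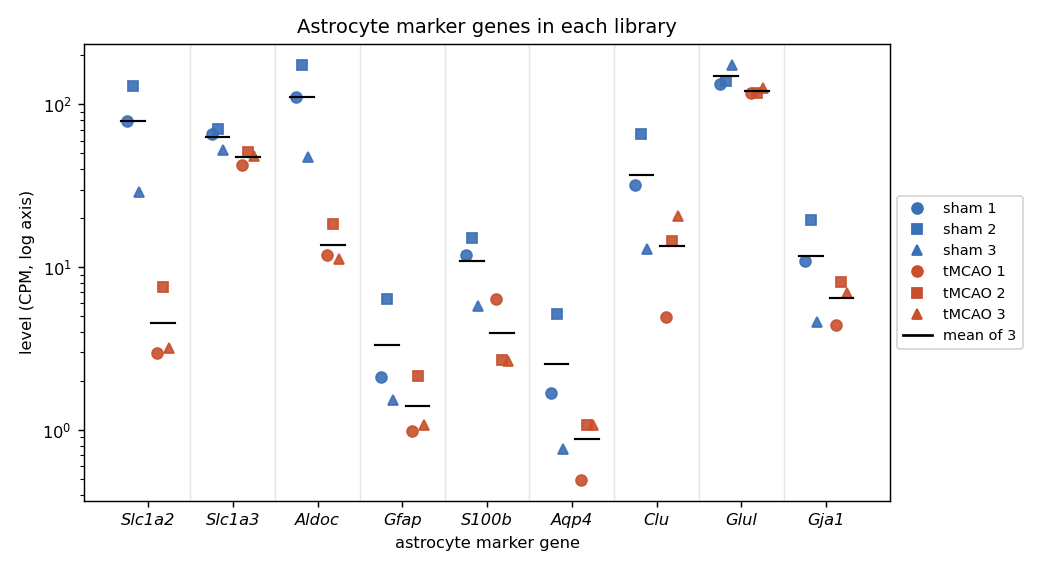
Level of each of the 9 astrocyte marker genes in each library (vertical axis, CPM on a log axis; blue for sham, orange for tMCAO, the shape giving the library number and the short line the mean of 3). Slc1a2 and Aldoc are separated widely by group, Slc1a3 and Glul narrowly, and in the other 5 genes the groups overlap; sham 2 is the highest library for every gene except Glul.

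S100b (ENSMUSG00000033208) encodes a calcium-binding protein of astrocytes that is also secreted. Its levels were 11.8, 15.1 and 5.74 CPM in sham 1 to 3 and 6.40, 2.69 and 2.66 CPM in tMCAO 1 to 3. The groups overlapped, since sham 3 (15 counts) lay below tMCAO 1 (13 counts of a smaller library). With a log2 fold change of -1.57 ± 0.47 (SE) it passed (adjusted p = 0.0353, edgeR's quasi-likelihood test). This was the least stable of the 3 calls, lost in 8 of 15 alternatives: DESeq2 (0.0566), limma voom (0.109), library totals as the only scaling (0.0562), without sham 1 (0.101), sham 2 (0.119), tMCAO 2 (0.130) or tMCAO 3 (0.0933), and without both sham 1 and tMCAO 3 (0.161). The lowest adjusted p of the alternatives was 0.00604. Of the related S100 genes, S100a4, known from fibroblasts and infiltrating myeloid cells, rose (2.04 ± 0.42 SE, adjusted p = 0.00564). The other 7 S100 genes tested did not pass, with log2 fold changes from -1.16 for S100a8 to 0.26 for S100a6.

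Clu (ENSMUSG00000022037) encodes clusterin, a secreted chaperone that carries lipids. It had 32.1, 65.4 and 13 CPM in sham 1 to 3 and 4.92, 14.6 and 20.8 CPM in tMCAO 1 to 3. The groups overlapped, with tMCAO 2 and tMCAO 3 above sham 3, and no call was made (log2 fold change -1.59 ± 0.82 SE; edgeR's quasi-likelihood test, adjusted p = 0.259). Its fold was about as large as that of S100b, with a larger error, and it moved from -2.23 without both sham 1 and tMCAO 3 to -0.83 without sham 2. It passed in none of the alternatives (0.0927 to 0.462). The 15 choroid plexus and ependymal markers of a list, with the thyroid hormone carrier gene Ttr as the most abundant, summed to 14083, 45014 and 8704 CPM in sham 1 to 3 and to 2294, 4067 and 10037 CPM in tMCAO 1 to 3. Those sums stood in the same order as Clu within each group. The sham order was that of 8 of the 9 astrocyte genes, Clu included. With 0.5 added to both, Clu counts per Slc1a2 count were 0.406, 0.507 and 0.451 in sham 1 to 3. In tMCAO 1 to 3 they were 1.615, 1.897 and 6.077. The part of choroid plexus RNA in the level of Clu was not tested.

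Gja1, Aqp4 and Gfap were low throughout. Gja1 (ENSMUSG00000050953), which encodes connexin 43, the main gap junction protein of astrocytes, had 26, 49 and 12 counts in sham 1 to 3 and 9, 15 and 13 counts in tMCAO 1 to 3. That gave 10.96, 19.4 and 4.59 CPM in sham and 4.43, 8.08 and 6.92 CPM in tMCAO, with sham 3 below both tMCAO 2 and tMCAO 3. It did not pass (log2 fold change -0.98 ± 0.51 SE; edgeR's quasi-likelihood test, adjusted p = 0.213). Without sham 3 it passed (-1.39, adjusted p = 0.0470), and without sham 2 its value was -0.35, with the highest adjusted p of the alternatives (0.665).

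Aqp4 (ENSMUSG00000024411), the water channel of astrocyte end feet, and Gfap (ENSMUSG00000020932) were not tested, because both failed the filter on low counts. Aqp4 had 4, 13 and 2 counts in sham 1 to 3 and 1, 2 and 2 in tMCAO 1 to 3. Gfap had 5, 16 and 4 counts in sham 1 to 3 and 2, 4 and 2 in tMCAO 1 to 3. For Gfap in sham 2, 6.34 CPM had a 95% exact binomial (Clopper-Pearson) interval of 3.62 to 10.3 CPM, and in tMCAO 2, 2.16 CPM had one of 0.587 to 5.52 CPM. Such intervals cover counting error only. With the filter removed, edgeR's quasi-likelihood test gave an adjusted p of 0.215 for Gfap (-1.29 ± 0.68 SE) and of 0.212 for Aqp4 (-1.55 ± 0.81 SE). A rise of Gfap, the usual mark of reactive astrocytes, was not detected at this depth.

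**Figure D2:**
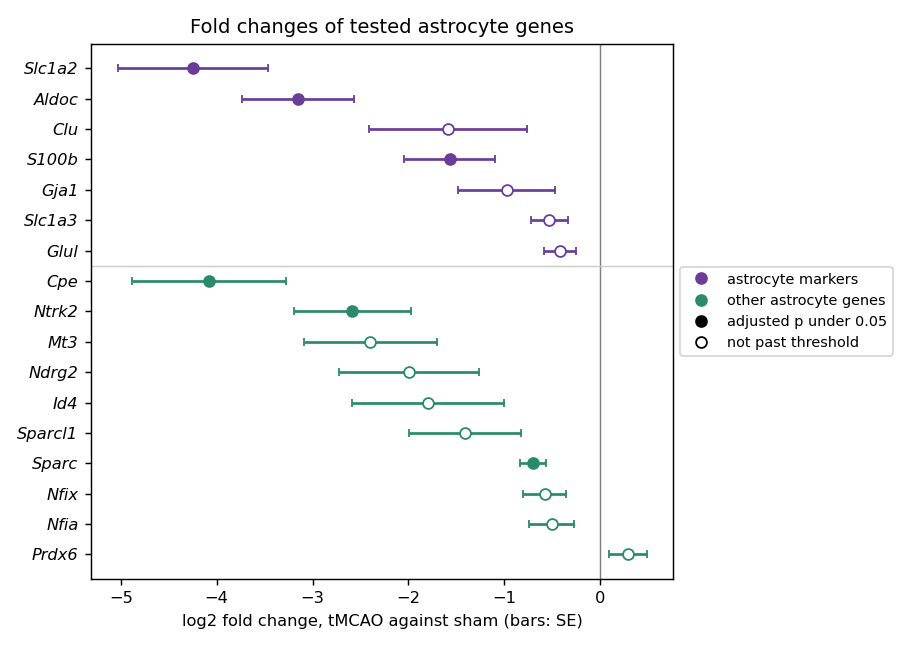
Log2 fold change of tMCAO against sham (horizontal axis, with SE bars) for the 7 tested astrocyte markers (purple) and 10 of the 11 tested genes of the wider astrocyte list (green), where filled points have an adjusted p under 0.05. Slc1a2, Aldoc, S100b, Cpe, Ntrk2 and Sparc are filled, and Prdx6 is the only point above 0.

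The groups did not overlap, with tMCAO below sham, for 4 of the 9 genes (Slc1a2, Slc1a3, Aldoc and Glul), all of them among the 7 tested. That was the case for 14.6% of all genes tested. The mean CPM was lower in tMCAO for 9 of 9, 2 of them not tested, against 53.7% of all genes and loci with a count and 42.2% of all genes tested. With library totals as the only scaling, the median over all genes tested moved from 0.00 to 0.11 on the log2 scale, and 63.2% in place of 50.6% of all calls were higher. The 7 tested members kept a negative log2 fold change there and with upper-quartile scaling.

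The wider list of 43 other genes known from astrocytes (transporters, transcription factors and secreted proteins) was also sparse in these libraries. Only 11 of the 43 passed the filter. Of these, 3 fell, 0 rose and 8 did not pass, against 9.17% higher and 8.96% lower over all genes tested. Their median log2 fold change was -1.80 (0.00 over all genes tested), which describes these 11 only, since several passed the filter through their sham counts. None was higher at an unadjusted p under 0.05, in DESeq2 or in limma voom. DESeq2 called 8 of the 11 lower, and limma voom 3. Over all 13127 genes tested they called 1695 and 1949, counting both directions. With no filter on low counts 18 of the 43 were called, all lower, against 4039 of 31736 genes called in either direction. The mean CPM was lower in tMCAO for 41 of the 43, against 53.7% of all genes and loci with a count. The number called was 1 without tMCAO 2, 1 without tMCAO 3 and 10 without sham 3.

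Cpe, an enzyme that processes peptide hormones, had 22.8, 36.9 and 6.88 CPM in sham 1 to 3 and 1.48, 2.16 and 0.533 CPM in tMCAO 1 to 3. It fell by 4.08 ± 0.80 on the log2 scale (edgeR's quasi-likelihood test, adjusted p = 0.0123). Ntrk2, the receptor for brain-derived neurotrophic factor, had 11.4, 25.8 and 6.502 CPM in sham and 1.48, 3.77 and 2.66 CPM in tMCAO and fell by 2.59 ± 0.61 (adjusted p = 0.0166). Both calls were lost in 5 of 15 alternatives (adjusted p up to 0.110 for Cpe and 0.0839 for Ntrk2). Cpe rests on 3, 4 and 1 counts in tMCAO 1 to 3. Without sham 2 both calls held with smaller values, -3.45 for Cpe (adjusted p = 0.00515) and -1.84 for Ntrk2 (adjusted p = 0.0291). Sparc, a secreted matrix protein that microglia also make, fell by 0.70 ± 0.14 (adjusted p = 0.00366) from 2750, 2347 and 3092 CPM to 1824, 1707 and 1907 CPM. Its call held in the 15 alternatives.

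Mt3, a metallothionein of the brain, had 74.2, 178 and 45.5 CPM in sham 1 to 3 and 12.8, 20.5 and 28.8 CPM in tMCAO 1 to 3. In spite of a gap between the groups it was not called (-2.40 ± 0.69 SE; edgeR's quasi-likelihood test, adjusted p = 0.0795), and it passed in 5 of 15 alternatives. Nfix, one of the NFI factors, did not pass (-0.58 ± 0.23 SE, adjusted p = 0.0951). Aldh1l1, the folate enzyme often used to mark all astrocytes, had 2.11, 2.77 and 0.382 CPM in sham and 0, 2.16 and 2.13 CPM in tMCAO. Sox9, a transcription factor of astrocytes, had 2.95, 10.3 and 2.29 CPM in sham and 1.48, 1.62 and 0.533 CPM in tMCAO, and Gjb6, the other astrocyte connexin, had 2.11, 3.57 and 0.382 CPM and 0.985, 0.539 and 1.07 CPM. None of these 3 passed the filter.

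Genes known to rise in reactive astrocytes included calls in both directions. Of 31 on the list, 15 were tested, 6 rose, 2 fell and 7 did not pass, against 9.17% higher and 8.96% lower over all genes tested. The median log2 fold change of the 15 was 0.47. Emp1, a membrane protein, rose by 3.94 ± 0.41 on the log2 scale, the filament gene Vim by 2.32 ± 0.26, the hyaluronan receptor gene Cd44 by 2.08 ± 0.30, the chemokine gene Cxcl10 by 2.07 ± 0.35 and the endotoxin co-receptor gene Cd14 by 0.79 ± 0.17 (edgeR's quasi-likelihood test, adjusted p = 8.01e-05 for Emp1, 9.13e-05 for Vim, 0.000555 for Cd44, 0.00667 for Cxcl10 and 0.00706 for Cd14). Vim had 7.59, 12.3 and 8.41 CPM in sham 1 to 3 and 61.1, 45.3 and 49.0 CPM in tMCAO 1 to 3, with no overlap. The small heat shock protein gene Hspb1 fell by 1.66 ± 0.31 (adjusted p = 0.00296). The other genes called were Lcn2, which fell by 1.35 ± 0.34 (adjusted p = 0.0280), and Srgn, which rose by 0.48 ± 0.15 (adjusted p = 0.0373), both named after their values were seen. Vim, Cd44, Cxcl10 and Cd14 are also known from microglia and other myeloid cells, and the cells these counts came from were not tested.

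Among 20 other genes of glutamate and glutamine handling, 11 were tested, 2 rose and 2 fell, against 9.17% higher and 8.96% lower over all genes tested, and the median log2 fold change was 0.28. DESeq2 called 0 higher and 1 lower (2 and 2 at an unadjusted p under 0.05), and limma voom 1 higher and 0 lower (4 and 3). Got1, an aspartate aminotransferase, rose by 0.71 ± 0.20 on the log2 scale (edgeR's quasi-likelihood test, adjusted p = 0.0245), as did Slc38a1, a neutral amino acid transporter, by 0.83 ± 0.25 (adjusted p = 0.0364). Slc38a3, the glutamine exporter of astrocytes, had 14.3, 19.8 and 7.27 CPM in sham 1 to 3 and 3.45, 3.77 and 7.46 CPM in tMCAO 1 to 3, and fell by 1.61 ± 0.46 (adjusted p = 0.0297), with sham 3 below tMCAO 3. Glud1, glutamate dehydrogenase, fell by 0.99 ± 0.31 (adjusted p = 0.0412). Each of these 4 calls was lost in 6 to 9 of 15 alternatives, with adjusted p up to 0.146. Among those that did not pass were Slc25a22 (1.11 ± 0.42 SE), Aldh18a1 (0.98 ± 0.39 SE) and the cystine transporter gene Slc7a11 (-0.48 ± 0.47 SE). In the transporter family itself, Slc1a5, a neutral amino acid transporter, had 2.95, 3.17 and 3.06 CPM in sham and 3.94, 5.93 and 5.33 CPM in tMCAO. Those values rest on 7, 8 and 8 counts in sham 1 to 3 and 8, 11 and 10 in tMCAO 1 to 3. Slc1a5 was not tested, because it failed the filter on low counts. Slc1a1 and Slc1a4 stayed under 3 CPM in every library, and Slc1a6 and Slc1a7 had no count.

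Sham libraries differed among themselves more in 7 of the 9 astrocyte genes than in most other genes. Sham 2 held 4.45 times the CPM of sham 3 for Slc1a2, 3.69 times for Aldoc, 2.63 times for S100b, 5.03 times for Clu, 4.23 times for Gja1, 4.15 times for Gfap and 6.74 times for Aqp4. For Slc1a3 it held 1.34 times and for Glul 0.80 times. Thus 7 of 9 reached a ratio of 2.5, as did 32 of the 42 genes of the wider list with a count in sham 3, against 2.27% of all genes tested and 6.54% of all with a count in sham 3. The threshold of 2.5 was set after the values were seen. The order sham 2, sham 1, sham 3 held for 8 of the 9 genes, all but Glul, and for 13.1% of all genes tested. The fall of Slc1a2 was -3.66 and that of Aldoc -2.62 without sham 2, and both passed edgeR's quasi-likelihood test there (adjusted p = 0.00631 and 0.00263).

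**Figure D3:**
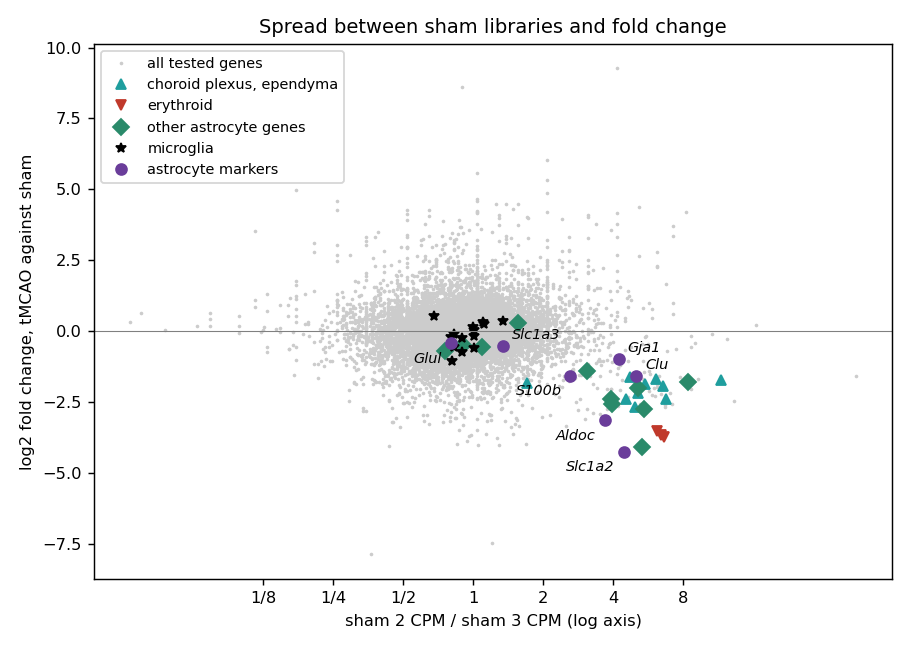
Ratio of sham 2 to sham 3 CPM (horizontal log axis) against the log2 fold change of tMCAO against sham (vertical axis) for tested genes, with the 7 tested astrocyte markers named. Most astrocyte, choroid plexus and erythroid genes lie at ratios above 2.5 and below a fold change of 0, while Glul, Slc1a3 and the microglia genes lie near a ratio of 1; both axes use the sham libraries, so they are not independent.

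Markers of some other cells, choroid plexus and erythroid above all, summed to the same order of sham libraries as these genes and had lower mean sums in tMCAO. Endothelial markers did neither, and the choroid plexus sums of the groups overlapped. The 7 astrocyte markers without Glul and Slc1a3 summed to 249.7, 416 and 102 CPM in sham 1 to 3 and to 32.0, 54.4 and 46.9 CPM in tMCAO 1 to 3. The choroid plexus sums above had the same sham order, and so did the 7 erythroid genes, mainly hemoglobins, at 2865, 6041 and 955 CPM in sham and 301, 215 and 379.7 CPM in tMCAO. Oligodendrocyte markers, Trf and Mbp among them, summed to 1238, 1869 and 933 CPM in sham and to 939.6, 1330 and 1255 CPM in tMCAO, so those groups overlapped. Trf, a transferrin gene, held 726 to 790.3 CPM of that sum in sham and 775 to 1081 CPM in tMCAO. Of the 16 oligodendrocyte markers, 13 had a lower mean in tMCAO, and 9 of the 12 with a count in sham 3 reached the ratio of 2.5. Neuron markers were close to absent, with 15 genes that summed to 20.3 to 27.0 CPM in sham and 8.52 to 13.8 CPM in tMCAO, and Gad2 had no count. Endothelial and mural markers summed to 292 to 418 CPM in sham and 234 to 475 CPM in tMCAO. The part of RNA from these other cells in the lower levels of the astrocyte genes was not tested.

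**Figure D4:**
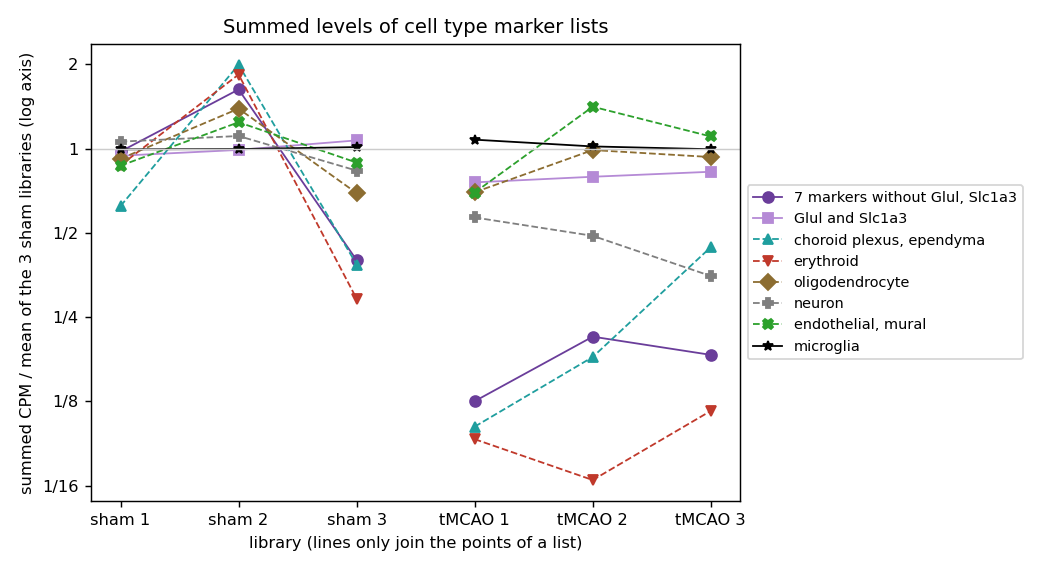
Summed CPM of each marker list in each library, divided by the mean of the 3 sham libraries (vertical log axis), with lines that only join the points of a list within a group. The 7 astrocyte markers without Glul and Slc1a3, the choroid plexus list and the erythroid list are highest in sham 2 and lowest among sham libraries in sham 3, while Glul with Slc1a3 and the microglia list stay near 1 in sham.

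The genes with the most similar pattern were found as the smallest root mean square difference, over the 6 libraries, of log2(CPM + 1) centred on each gene's mean, among 8276 other named genes. For Slc1a2 they were Cpe (0.41), Aldoc (0.50) and the beta-globin gene Hbb-bt (0.58), and for Aldoc they included Cpe (0.27) and Plekhb1 (0.36). Clu was closest to Ptgds (0.18), Gsta4 (0.23) and Prlr (0.25). Ptgds makes prostaglandin D2, and Prlr, the prolactin receptor, is on the choroid plexus list. S100b was closest to Ddx17 (0.24), Fam84b (0.25) and Nek9 (0.30), and Gja1 to Atp6v0e2, Meig1 (0.18 each) and Pot1b (0.24). Slc1a3 was closest to Rcor1 (0.07), Tspyl1 (0.08) and Grhpr (0.08), and Glul to Lzic (0.04), Rack1 (0.04) and Il7r (0.06). A gene with small changes finds many close partners, so these distances are not comparable between members.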

How the data were processed

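Microglia of mouse brain were profiled in 6 libraries, 3 sham and 3 tMCAO, named by group and label number. Per the labels' protocols, RNA was extracted with TRIzol and sequenced with a PCR-based nanopore cDNA kit, and minimap2 is named in the submitters' processing notes. No version, genome build, annotation, counting rule or strand setting was given in the sources used here. Overlapping genes and antisense partners may therefore share reads. The authors deposited raw read counts per gene, per the file headers, and CPM that they scaled by library totals. The deposited CPM differed by at most 4.87e-06 from CPM computed here from the counts. Of 38219 lines, 12 held no values and were left out. All 9 members had the same symbol in GENCODE M21.

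Counts were tested with edgeR 4.0.16 (R 4.3.3): filterByExpr (minimum count 10, minimum total 15), TMM, robust dispersions and quasi-likelihood F tests with the group as the only term, and Benjamini-Hochberg adjustment over the 13127 genes tested (threshold 0.05). The SE is the absolute log2 fold change divided by the square root of F. The fit was tested on simulated data in which all genes had the same dispersion. That does not cover genes that vary as widely between sham pools as several members do. The 15 alternatives were 3 other scalings, no filter on low counts, no robust dispersion, DESeq2 1.42.0, limma voom 3.58.1, a replicate block, each library left out in turn, and sham 1 and tMCAO 3 left out together. The genes and lists were chosen with earlier results of these data known. Named genes are the 9 members, the 3 nearest patterns per tested member, up to 6 genes with the smallest p of each of 3 lists, 6 others, relatives of the members at 1 CPM or more, and the most abundant markers of other cells. Some genes that this rule names are not reported here. Nothing in the labels ties pools to preparation days, and p-values reflect only how much these libraries varied. Copies of a molecule made by PCR may have been counted more than once, since the counting rule was not given.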

Additional observations from a re-analysis of the deposited data

How the results depend on the processing

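All 7 tested astrocyte markers kept a negative log2 fold change in all 15 alternatives, and the calls did not hold as widely. With edgeR's quasi-likelihood test 3 of the 7 were called. With single libraries left out the number ran from 0 to 4. It was 0 without tMCAO 2, without tMCAO 3 and without both sham 1 and tMCAO 3, where 4, 5 and 3 members had an unadjusted p under 0.05; DESeq2 and limma voom were run on all 6 libraries only, and each called 2. Fits with a library left out rest on 2 libraries in 1 group. The wider astrocyte list, with 3 calls, gave 18 with no filter on low counts, 7 without robust dispersion, 8 with DESeq2, 1 without both sham 1 and tMCAO 3, and 1 to 10 with single libraries left out. Over all genes, 2380 calls became 4039 with no filter on low counts, where 31736 genes were tested, 1573 without both sham 1 and tMCAO 3, and 1254 to 2590 with single libraries left out (1254 without sham 1 and 1558 without sham 3). The causes were not tested. With the replicate number as a block, 3 members, 5 genes of the wider list and 1662 genes in all were called. Deviations of same-numbered libraries correlated at -0.20, 0.02 and -0.17 across genes. With 3 libraries per group, these values cannot decide whether same-numbered libraries were prepared together, and the labels do not say. A pseudocount of 1 count, an alternative chosen after seeing the data, left the 7 ratios between genes at log2 differences of 1.03 to 3.54. At this depth Gfap and Aqp4 rest on at most 16 counts per library.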
